A study of Mus musculus with 4 samples.

Results

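The proteasome is described here through 49 of the 32285 genes in the deposited count matrices, namely every symbol that consists of Psma, Psmb, Psmc, Psmd, Psme, Psmf or Psmg followed by a number and at most 1 letter. The rule itself reads names only and no measured value. The core particle was represented by 7 alpha ring genes, 4 structural beta genes, 3 constitutive catalytic beta genes (Psmb5, Psmb6 and Psmb7) and 3 inducible catalytic beta genes (Psmb8, Psmb9 and Psmb10), besides the testis form Psma8 and the thymus form Psmb11. The regulatory particle contributed 6 ATPase genes, 11 other subunits and 3 assembly chaperones. The remaining genes were the 2 subunits of the interferon-inducible activator, Psme1 and Psme2, with the near copy Psme2b, the other activators Psme3 and Psme4, the inhibitor Psmf1 and 4 assembly chaperones of the core particle.

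The proteasome is the barrel-shaped protease that degrades ubiquitin-tagged proteins in the cytosol and nucleus. Its regulatory particle binds and unfolds the substrate, and the catalytic beta subunits inside the core particle cut it. In cells of the immune system, and in other cells exposed to interferon gamma, Psmb8, Psmb9 and Psmb10 take the places of Psmb5, Psmb6 and Psmb7 in newly built particles, which gives the immunoproteasome. That form is known for producing peptides that MHC class I molecules present to CD8 T cells. Reticulocytes, the youngest red cells in blood, keep RNA and proteasomes for a short time after they lose the nucleus.

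The study sequenced single-cell RNA from lung and blood of female C57/Bl6 mice aged 6 to 8 weeks, in material described as enriched for CD45-positive immune cells. In the metastasis arm 800000 cells of the mouse melanoma line B16F10 were injected into the spleen, and in the sham arm saline was injected. In both arms the spleen was taken out straight afterwards, each animal bore a tumour under the skin from 250000 B16F10 cells, and tissue was collected on day 7. Each of the 4 groups (metastasis lung, sham lung, metastasis blood, sham blood) had 1 library. The sources used here do not give how many mice a library pools. With 1 library per group no difference has a replicate check, no test between groups was possible, and every interval below is a 95% interval that covers counting error only.

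The matrices held 31176, 36125, 18115 and 20975 barcodes with 127281060, 132540945, 112079231 and 116022872 UMIs (counted RNA molecules). Values in fours are given as metastasis lung, sham lung, metastasis blood and sham blood throughout. Haemoglobin transcripts took 78.1%, 65.7%, 78.6% and 43.7% of the UMIs, although red cells do not carry CD45, so all levels are counts per 1000000 UMIs without 8 haemoglobin genes (CPM). Barcodes were placed in classes by fixed marker genes, and class names end in "-like" because they rest on those markers alone. Neutrophil-like cells numbered 1293, 51, 2429 and 431, B-like cells 2238, 4808, 1782 and 8265, and T-like cells 2123, 5148, 590 and 2332. Red cell barcodes with at least 200 detected genes, called gene-rich, numbered 5375, 705, 3035 and 239, and those with fewer, called gene-poor, 17641, 21320, 9457 and 7673. Between 109 and 316 barcodes were shared by any pair of libraries, at most 1.071% of the smaller one. The proteasome genes had 115791, 183725, 93217 and 257415 UMIs, and since UMIs were not divided by transcript length, a gene is compared with itself across cells and not with other genes.

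Summed over the 49 genes, classical monocyte-like cells held more proteasome RNA than B-like and T-like cells, neutrophil-like cells much less, and red cell barcodes an amount that differed strongly between libraries. B-like cells had 4325, 4190.1, 4309.5 and 4184 CPM and T-like cells 4243, 3961, 3909 and 3648 CPM. Classical monocyte-like cells had 6984 CPM in metastasis lung, 6504 in metastasis blood and 5679.8 in sham blood, and lung sham had too few of them for a value. Non-classical monocyte-like cells had 5066 CPM in metastasis lung, 4186.5 in sham lung and 3747 in sham blood, above B-like cells in the first of these only. Natural killer (NK)-like cells had 5654, 5125 and 4646 CPM in metastasis lung, sham lung and sham blood. Neutrophil-like cells had 1700.4, 1412, 2171 and 1429 CPM, the lowest of the immune classes with at least 50 cells in each library. Gene-rich red cell barcodes had 5332, 3555, 5899.8 and 2262 CPM, with both metastasis libraries above both sham libraries.

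**Figure D1:**
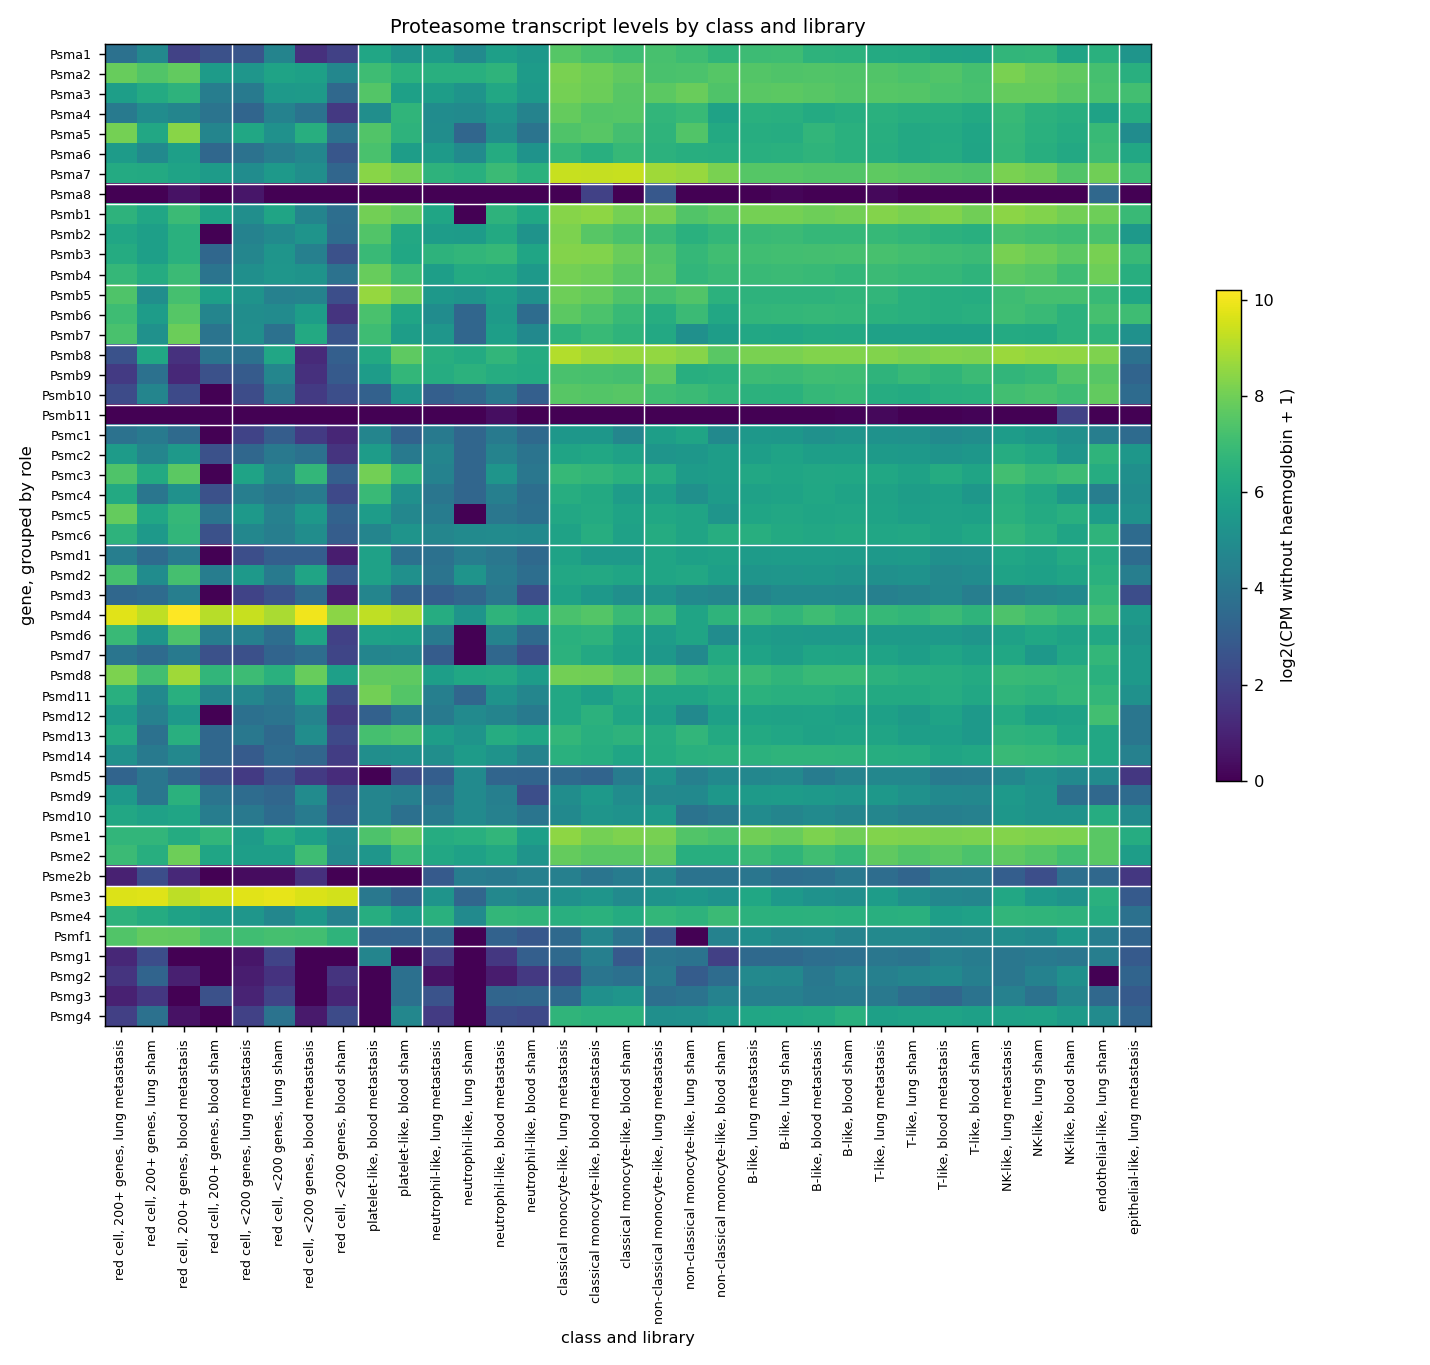
Level of each of the 49 proteasome genes, as log2(CPM + 1) without haemoglobin, in every class and library with at least 50 cells, with genes grouped by role. Yellow is high and dark violet low: neutrophil-like columns are darker than lymphocyte and monocyte columns for most genes, red cell columns are brightest for Psme3 and Psmd4, and Psma8 and Psmb11 are near 0 in most columns.

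Summed over the pairs, the inducible catalytic genes had more UMIs than their constitutive counterparts in the lymphocyte, monocyte and neutrophil classes. UMIs were not divided by transcript length, so such sums compare classes and libraries and do not rank the genes. Of the UMIs of Psmb9 and Psmb6, Psmb9 had 43.2%, 49.0% and 65.1% in NK-like cells of metastasis lung, sham lung and sham blood. In classical monocyte-like cells Psmb9 had 43.7%, 48.6% and 54.4% in metastasis lung, metastasis blood and sham blood. The inducible share, the UMIs of Psmb8, Psmb9 and Psmb10 as a percentage of the UMIs of all 6 catalytic genes, was 65.3%, 65.0%, 66.5% and 66.5% in B-like cells. T-like cells had 65.9%, 67.5%, 69.7% and 70.0%, and NK-like cells 65.7%, 65.6% and 67.1% in metastasis lung, sham lung and sham blood. Lymphocyte libraries thus spanned only a few percentage points, and so did classical monocyte-like cells with 61.4% in metastasis lung, 60.6% in metastasis blood and 65.3% in sham blood. Non-classical monocyte-like cells had 70.6% in metastasis lung, 61.6% in sham lung and 64.5% in sham blood, and endothelial-like cells of sham lung, at 66.1% (56.4 to 74.9), were in the same range. Epithelial-like cells of metastasis lung stood apart at 12.4% (7.11 to 19.6), from 15 inducible and 106 constitutive UMIs. Neither epithelial nor endothelial cells belong to the immune system. Haemoglobin took 56.5% of the UMIs of the endothelial-like barcodes of sham lung, which had a median of 638 UMIs without it.

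The promoters of Psmb8, Psmb9 and Psmb5 are printed because these genes enter the inducible share, and that of Psme1 as an example from the inducible activator. Each sequence is the RefSeq window on GRCm38.p6 from 250 bases before to 50 bases after the start of the gene, read 5′ to 3′ on its own strand. Psmb8 (chr17:34197945-34198244, plus strand) and Psmb9 (chr17:34187281-34187580, minus strand) flank Tap1, a subunit of the transporter that moves peptides into the endoplasmic reticulum. Psmb9 and Tap1 are 225 bases apart, and Tap1 and Psmb8 are 969 bases apart. Psme1 lies at chr14:55578244-55578543 on the plus strand, 5912 bases from Psme2, and Psmb5 at chr14:54617946-54618245 on the minus strand. Capitals mark matches to TTCNNNGAA, the form bound by STAT factors, to the interferon-stimulated response element core (GAAA, any 2 bases, GAAA), the form bound by interferon regulatory factors, to TGANTCA, the form bound by AP-1 factors, or to TGACNNNGC, the core of the antioxidant response element.
Psmb8: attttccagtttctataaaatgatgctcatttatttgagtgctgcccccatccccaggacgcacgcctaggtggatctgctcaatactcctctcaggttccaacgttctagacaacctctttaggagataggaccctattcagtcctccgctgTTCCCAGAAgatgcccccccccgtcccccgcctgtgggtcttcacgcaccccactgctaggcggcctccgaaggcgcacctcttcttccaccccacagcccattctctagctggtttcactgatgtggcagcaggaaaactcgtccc
Psmb9: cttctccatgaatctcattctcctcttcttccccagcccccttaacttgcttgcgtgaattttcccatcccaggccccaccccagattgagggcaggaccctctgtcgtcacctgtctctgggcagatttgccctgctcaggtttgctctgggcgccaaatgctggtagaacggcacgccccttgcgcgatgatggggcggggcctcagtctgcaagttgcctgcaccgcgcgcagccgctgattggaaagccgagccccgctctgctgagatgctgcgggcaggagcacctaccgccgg
Psme1: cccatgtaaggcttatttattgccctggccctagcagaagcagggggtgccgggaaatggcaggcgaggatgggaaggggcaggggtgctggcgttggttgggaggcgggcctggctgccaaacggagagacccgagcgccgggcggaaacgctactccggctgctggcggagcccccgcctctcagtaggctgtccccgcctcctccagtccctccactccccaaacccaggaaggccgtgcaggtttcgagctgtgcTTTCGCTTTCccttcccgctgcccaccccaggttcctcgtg
Psmb5: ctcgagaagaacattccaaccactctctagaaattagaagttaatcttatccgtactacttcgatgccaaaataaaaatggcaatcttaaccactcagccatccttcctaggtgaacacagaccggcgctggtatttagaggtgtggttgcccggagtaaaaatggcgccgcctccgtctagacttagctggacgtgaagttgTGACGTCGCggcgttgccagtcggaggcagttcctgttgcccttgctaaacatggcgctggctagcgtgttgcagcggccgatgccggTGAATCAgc
In these windows Psmb8 holds TTCCCAGAA 97 bases upstream of the start, Psme1 holds TTTCGCTTTC 10 bases downstream, and Psmb5 holds TGACGTCGC 47 bases upstream and TGAATCA 42 bases downstream. Psmb9 holds none of the 4 forms. Searched on both strands, TTCNNNGAA occurs in 8.298% of 32851 RefSeq windows of the same length, the interferon-stimulated core in 3.443%, TGANTCA in 7.808% and TGACNNNGC in 12.39%. Of the 49 genes 41 had a window, and some of these have more than 1, which makes 44 windows. TTCNNNGAA occurred in Psmb8, Psmd2 and Psmg1, the interferon-stimulated core in Psmb3, Psmd4, Psmd9, Psme1 and Psmg4, TGANTCA in Psmb5 and Psmd9, and TGACNNNGC in Psmb5, Psmb6, Psmc6, Psmd9, Psmd12 and Psme4. TGANTCA and TGACNNNGC begin alike and can overlap, but the 2 matches in Psmb5 do not. A match describes letters and is not evidence of binding.

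**Figure D2:**
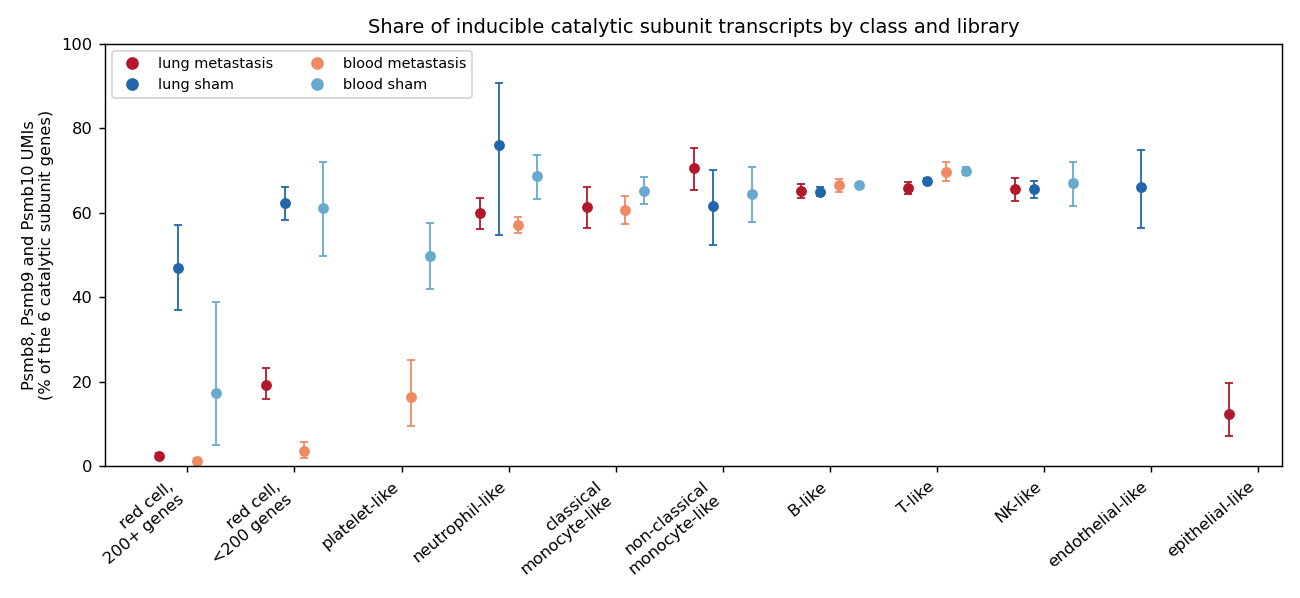
Inducible share of the catalytic UMIs, in percent, by class and library, with exact 95% Clopper-Pearson intervals. Lymphocyte and monocyte points lie between 60.6% and 70.6%, whereas gene-rich red cell barcodes lie at 2.41% and 1.18% in the metastasis libraries and at 47.1% and 17.4% in the sham libraries.

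Neutrophil-like cells carried less RNA of nearly every part of the proteasome than B-like cells of the same library. A gene is called higher or lower where it differed by at least 1.5-fold with an interval that excludes equality, among genes with at least 100 UMIs over both sides and a mean of at least 10 CPM. Called lower were 41 of 44, 24 of 46, 35 of 45 and 42 of 47 measured proteasome genes, against 62.2%, 26.7%, 51.1% and 50% of all measured genes. The median log2 ratio of the measured proteasome genes was -1.56, -1.35, -0.98 and -1.70, and that of all genes -1.18, -0.55, -0.63 and -0.63. In all 4 libraries 19 of 43 genes measured in each were lower and 0 higher, among them 5 of the 7 alpha ring genes and 4 of the 6 ATPases. The share of all genes called in every library was not computed, here or for the comparisons below. Against classical monocyte-like cells, the closest myeloid class, 19 of 22 genes measured in all 3 libraries were lower in each. By library, 22 of 24, 35 of 41 and 21 of 23 were lower in metastasis lung, metastasis blood and sham blood. The shares of all measured genes were 31.6%, 33.4% and 30.1%. Neutrophil-like cells were identified by markers such as S100a8 and Retnlg, and the 12 genes of that list made up 252341, 222281, 184192 and 90298 CPM of their RNA. What that share takes from every other gene on a CPM scale was not tested.

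The assembly chaperones of the core particle were far below the B-like level in neutrophil-like cells. Psmg1 to Psmg4 together had 10.8, 0, 16.1 and 23.0 CPM there, against 124, 125, 119 and 142 CPM in B-like cells. Psmg4, which pairs with Psmg3 to help build the alpha ring, had 2.40, 0, 4.27 and 3.71 CPM in neutrophil-like cells and 65.2, 67.3, 73.0 and 89.4 CPM in B-like cells, a log2 ratio of -4.77, -4.09 and -4.59 in the 3 libraries with a count. In no library did the neutrophil value come near the B-like value. Psmd7, a structural subunit of the lid of the regulatory particle, had 6.79, 0, 9.55 and 4.46 CPM against 59.6, 50.3, 63.0 and 61.6 CPM. Psme4, a nuclear activator, was an exception with 87.5, 28.4, 108 and 102 CPM in neutrophil-like and 94.2, 90.8, 93.2 and 89.2 CPM in B-like cells. Its 2 blood values in neutrophil-like cells were the higher of each pair. Psmg4, Psmd7 and Psme4 were picked for this comparison after their values were seen.

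The catalytic pairs did not move together in neutrophil-like cells. Psmb10, which replaces Psmb7, had 7.59, 9.48, 16.1 and 7.43 CPM in neutrophil-like cells against 93.7, 91.6, 112 and 116 CPM in B-like cells, with log2 ratios of -3.62, -3.27, -2.80 and -3.96. Of the UMIs of the pair, Psmb10 took 15.8% in metastasis lung, 23.7% in metastasis blood and 21.3% in sham blood neutrophil-like cells, and 57.4%, 58.2%, 60.7% and 62.3% in B-like cells. Sham lung neutrophil-like cells had 1 UMI of each gene. Psmb8, which replaces Psmb5, took 66.4%, 66.7%, 66.9% and 69.5% of its pair in neutrophil-like cells and 75.0%, 74.9%, 76.1% and 75.4% in B-like cells. The sham values of neutrophil-like cells rest on few UMIs, 8 of Psmb8 and 4 of Psmb5 in lung (interval 34.9% to 90.1%) and 105 and 46 in blood (61.5% to 76.8%), and both intervals include the B-like share. Psmb9, which replaces Psmb6, went the other way, with 72.1%, 90.9%, 63.0% and 87.0% in neutrophil-like cells and 54.7%, 53.3%, 54.9% and 54.5% in B-like cells. The Psmb8 share was thus below the B-like share beyond counting error in the metastasis libraries only, the Psmb10 share in the 3 libraries with more than a single pair of UMIs, and the Psmb9 share was above it in all 4.

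In blood, neutrophil-like cells of the metastasis library carried more proteasome RNA than those of the sham library, and more so for the constitutive than for the inducible catalytic genes. Of 40 measured proteasome genes 22 were higher and 0 lower, against 17.6% of all 5589 measured genes higher and 17.6% lower. The median log2 ratio was 0.65 for the proteasome genes and -0.01 for all genes. The summed level was 1.52-fold (1.45 to 1.59) that of sham. By role, 5 of 7 alpha ring genes were higher, 3 of 4 structural beta genes, 3 of 3 constitutive catalytic genes, 1 of 3 inducible catalytic genes, 3 of 6 ATPases, 4 of 10 other regulatory subunits and both subunits of the inducible activator. The largest ratios were those of Psmd9 and Psmb6.

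Psmd9, a chaperone that helps build the ATPase ring, had 20.4 CPM in metastasis and 4.46 CPM in sham neutrophil-like cells of blood (143 and 6 UMIs), a log2 ratio of 2.19 (1.04 to 3.66). Psmb6 had 46.4 and 11.1 CPM (326 and 15 UMIs), a log2 ratio of 2.06 (1.32 to 2.91). Psmb7 had 51.7 and 27.5 CPM (0.91 on the log2 scale) and Psmb5 had 51.7 and 34.2 CPM (0.60). All 3 constitutive catalytic genes were thus higher in metastasis. Of their inducible counterparts Psmb10 was higher at 16.1 against 7.43 CPM (log2 ratio 1.12). Psmb8, at 104 against 78.0 CPM (log2 ratio 0.42, 0.12 to 0.73), and Psmb9, at 79.1 against 74.3 CPM (0.09), did not reach 1.5-fold. Psme1, at 105 against 54.2 CPM (0.95), and Psme2, at 70.5 against 37.9 CPM (0.90), were higher. Reads of Psme2 and Psme2b cannot be fully told apart because the genes are near copies, and the split between them is uncertain.

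**Figure D3:**
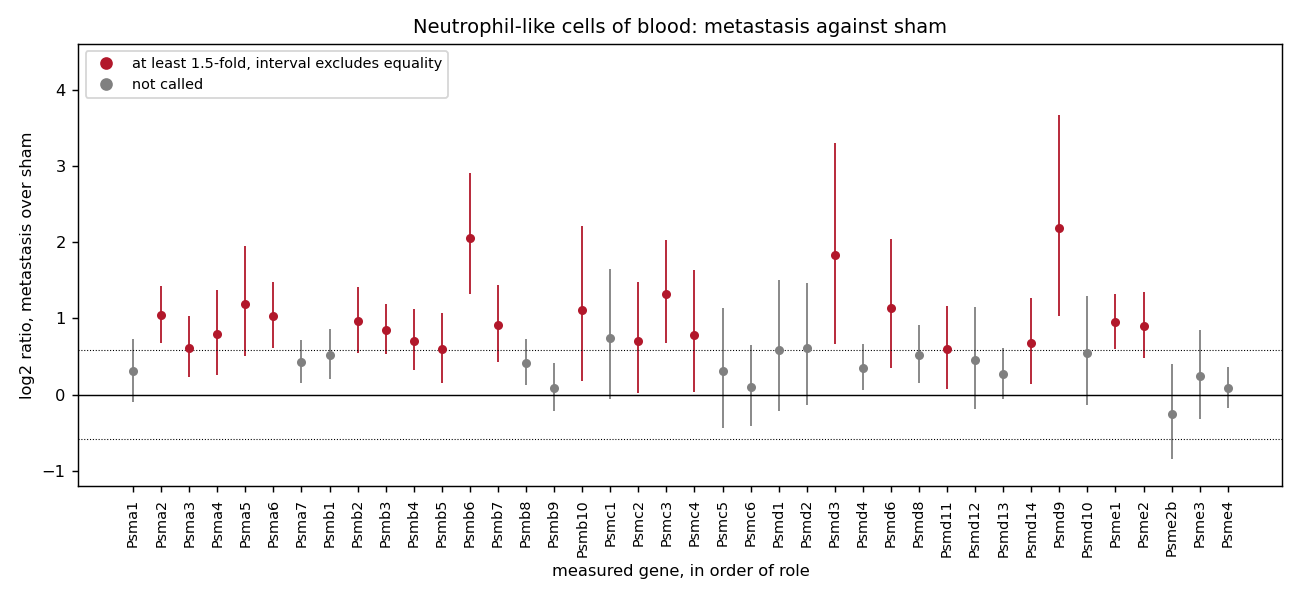
Log2 ratio of metastasis over sham, with exact 95% counting intervals, for the 40 proteasome genes measured in neutrophil-like cells of blood. Dotted lines stand at 1.5-fold in either direction. Psmd9 and Psmb6 lie highest, and no gene lies below the lower line.

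The inducible share of blood neutrophil-like cells was 57.1% (55.1 to 59.1) in metastasis and 68.7% (63.2 to 73.8) in sham, a log2 odds ratio of -0.72 (-1.10 to -0.35). The Psmb9 share of its pair carried most of that distance, with 63.0% (59.7 to 66.2) in metastasis and 87.0% (79.4 to 92.5) in sham. In lung the inducible share was 60.0% (56.3 to 63.6) in metastasis and 76.0% (54.9 to 90.6) in sham, from only 25 UMIs in sham. That log2 odds ratio of -1.08 had an interval (-2.71 to 0.33) that includes equality.

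The makeup of the neutrophil-like cells differed between the blood libraries. Transcripts of the secondary granule proteins Ngp, Ltf and Camp, which are made during neutrophil development in the bone marrow, were all absent from 419 of 431 sham cells and from 1147 of 2429 metastasis cells, while 390 metastasis cells held at least 2 of them. Within the metastasis library of blood, cells with at least 2 of these transcripts had an inducible share of 49.9% (46.2 to 53.6) and cells with none 63.9% (60.5 to 67.3). Of 30 measured proteasome genes 14 were higher and 1 lower in the cells with granule transcripts, against 13.2% of all measured genes higher and 39.0% lower. Metastasis lung gave 49.5% (43.9 to 55.2) in 406 cells with and 68.4% in 668 cells without granule transcripts, and there 3 of 15 genes were higher and 2 lower, against 12.7% and 40.8% of all genes. In both tissues the cells with granule transcripts thus had the lower inducible share. Psmb6 had 76.9 CPM in metastasis cells with granule transcripts, 26.6 CPM in metastasis cells without and 11.6 CPM in sham cells without, all in blood.

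When only blood cells without granule transcripts were set side by side, 5 of 21 measured proteasome genes were higher in metastasis than in sham and 0 lower, against 12.7% of all genes higher. The median log2 ratio was 0.37 and that of all genes 0.01. Psmd9 (log2 ratio 1.37) and Psmb6 (1.19) were no longer called there. The inducible share was 63.9% in metastasis and 68.2% (62.6 to 73.4) in sham, a log2 odds ratio of -0.28 with an interval (-0.70 to 0.14) that includes equality. Platelet transcripts also differed, with 4121 CPM in metastasis and 1736 CPM in sham neutrophil-like cells of blood. Among blood cells with none of the platelet markers, 15 of 27 measured proteasome genes were higher in metastasis, against 14.1% of all genes, and the log2 odds ratio of the inducible share was -1.26 (-2.06 to -0.52), the sham side holding 145 cells with 69 inducible and 21 constitutive catalytic UMIs. Without cells that held 2 or more platelet markers, 14 of 31 were higher, the median was 0.48 on the log2 scale beside -0.12 for all genes, and the log2 odds ratio of the share was -0.86. Haemoglobin took 16.5% and 8.89% of the UMIs of metastasis and sham neutrophil-like cells in blood. Without cells over 5% haemoglobin UMIs, which left 2177 and 390 cells, 20 of 39 were higher and 0 lower. Their median was 0.76 on the log2 scale, and the log2 odds ratio of the inducible share was -0.76. The share of all genes called was not computed without cells that held 2 or more platelet markers or without cells over 5% haemoglobin UMIs.

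In lung the comparison of neutrophil-like cells was limited by the 51 sham cells, which had 0 UMIs for several members. Of 19 measured proteasome genes 2 were higher in metastasis, against 4.05% of all measured genes, and 0 were lower, against 6.00%. Psme4 had 87.5 CPM in metastasis and 28.4 CPM in sham (219 and 3 UMIs), a log2 ratio of 1.62 (0.06 to 3.91). Psmb1, a structural beta subunit, had 63.1 CPM in metastasis and 0 UMIs in sham. Its ratio was 2.22-fold with sham set to a floor of 3 counts, which is not a lower limit. The median log2 ratio was 0.17, and 0.01 for all genes. Without cells over 5% haemoglobin UMIs, which left 1009 and 33 cells, the log2 odds ratio of the inducible share was -0.0029 in lung.

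Partner genes outside the name pattern had a median log2 ratio of 0.09 in blood neutrophil-like cells, over 20 measured of 21 matched, beside 0.65 for the proteasome genes themselves. Higher in metastasis were Pomp, which guides maturation of the core particle (68.5 against 45.3 CPM), Ddi2, the protease that activates the transcription factor Nfe2l1 (81.5 against 37.1 CPM), Sem1 and Rps27a, and Zfand2a was lower. Of 11 genes that supply peptides to MHC class I or form it, 9 were measured, 0 were higher and 3 lower. These were B2m, its light chain (732 against 1512 CPM, log2 ratio -1.05), H2-K1 (235 against 359 CPM) and H2-D1 (1208 against 1848 CPM). Of 14 interferon response genes and inducers 12 were measured, of which Nlrc5, Gbp2 and Irgm1 were higher and Ifngr2 lower. The same background of 17.6% in each direction applies to these lists.

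B-like, T-like, NK-like and classical monocyte-like cells showed few differences between the arms, with 0 or 1 proteasome gene called in each tissue, while 2 of the few genes measured in non-classical monocyte-like cells were called. In lung, 1 of 47 measured proteasome genes was called in B-like cells, where 1.81% of all measured genes were higher and 0.462% lower. Further lung counts were 0 of 47 in T-like cells (1.47% of all genes higher and 0.162% lower), 1 of 42 in NK-like cells (2.14% and 1.13%) and 2 of 4 in non-classical monocyte-like cells (4.71% and 3.90%). In blood, 0 of 47 were called in B-like cells (1.65% and 0.847%), 0 of 47 in T-like cells (3.74% and 1.33%) and 1 of 30 in classical monocyte-like cells (5.33% and 3.81%). Every called gene was higher in metastasis. The summed level of the 49 genes in metastasis was 1.03-fold that of sham in B-like cells of either tissue, 1.07-fold in T-like cells of either tissue, 1.10-fold in lung NK-like cells, 1.15-fold in classical monocyte-like cells of blood and 1.21-fold (1.10 to 1.33) in non-classical monocyte-like cells of lung.

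Psme3, the nuclear activator that promotes degradation of proteins without ubiquitin tags, was the gene called most often in lung lymphocytes. It had 67.5 CPM in metastasis and 43.4 CPM in sham B-like cells (log2 ratio 0.64, 0.42 to 0.85). CD8 T-like cells had 51.7 and 32.8 CPM (0.66), the sole member called of 47 (2.16% of all genes higher and 0.752% lower), and in CD4 T-like cells Psme3 was again the sole member called, of 39 (log2 ratio 0.61, with 2.92% of all genes higher and 0.944% lower). Psme3 RNA is abundant in red cell barcodes, as described below, and haemoglobin took 27.5% of the UMIs of B-like cells in metastasis lung and 22.3% in sham lung. When leukocytes with over 5% haemoglobin UMIs were left out, the log2 ratio of Psme3 in lung B-like cells was 0.09. Over all alternative settings it ran from 0.27 to 0.57 in T-like cells of lung taken whole and from 0.32 to 0.63 in NK-like cells of lung. Psme3 was called in neither of these classes in the main setting. The part of red cell RNA in these ratios was not tested. In lung NK-like cells Psmd7 had 67.7 CPM in metastasis and 42.2 CPM in sham (0.68). In lung non-classical monocyte-like cells Psmb1 had 277 and 172 CPM (0.69) and Psme1 274 and 172 CPM (0.67), but the log2 ratio of Psme1 was -0.067 where 2 markers sufficed for a class. The 5 immunoproteasome genes summed to 1206 CPM in metastasis and 786 CPM in sham non-classical monocyte-like cells, 1.53-fold (1.24 to 1.91), from 128 and 54 cells. In blood, Psmd6, a lid subunit of the regulatory particle, had 95.3 and 59.1 CPM in classical monocyte-like cells (0.69), the ATPase Psmc3 (0.64) and the lid subunit Psmd3 (0.80) were the 2 of 46 called in CD8 T-like cells (4.03% of all genes higher and 2.29% lower), and the alpha ring gene Psma6 was the 1 of 35 called in CD4 T-like cells (3.49% higher and 3.28% lower).

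The inducible share of lymphocytes differed little between the arms. The log2 odds ratio of metastasis over sham was 0.02 (-0.10 to 0.14) in lung B-like cells, 0.00 in lung NK-like cells, -0.00 in blood B-like cells and -0.02 in blood T-like cells. In lung T-like cells it was -0.10 (-0.21 to -0.00), and in classical monocyte-like cells of blood -0.29 (-0.57 to 0.00). Non-classical monocyte-like cells of lung had the largest value of these classes, 70.6% in metastasis and 61.6% in sham with a log2 odds ratio of 0.58 (-0.08 to 1.23). Their UMIs of Psmb9 and Psmb6 were 67 and 27 in metastasis and 12 and 18 in sham, a log2 odds ratio of 1.90 (0.54 to 3.27). The spread between mice was not measured.

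Classical monocyte-like cells had more of 9 of the 42 proteasome genes measured in 3 libraries than B-like cells in each of them. By library, 19 of 44, 16 of 43 and 13 of 46 were higher in metastasis lung, metastasis blood and sham blood. The shares of all measured genes were 18.1%, 20.7% and 22.4%. The 9 genes were Psma4, Psma5, Psma7, Psmb3, Psmb4, Psmb5, Psmb10, Psmd2 and Psmd8. Psma7, an alpha ring gene, had 649, 633 and 656 CPM in classical monocyte-like cells in that order and 183, 172 and 172 CPM in B-like cells. The lowest monocyte value was over 3-fold the highest B-like value. NK-like cells and T-like cells each differed from B-like cells in every library by 1 gene, Psmc3 being higher in NK-like cells and Psma1 lower in T-like cells. In sham lung alone 7 of 46 measured proteasome genes were higher in NK-like cells, against 21.1% of all genes. There 2 of 47 were lower in T-like cells, against 25.9% of all genes.

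Red cell barcodes held a proteasome set with its own composition, in which Psme3, Psmd4 and Psmf1 stood out. These 3 genes were higher than in B-like cells in every library, in both gene-rich and gene-poor barcodes, while 16 of 43 measured genes in gene-rich and 30 of 42 in gene-poor barcodes were lower in every library. Of all measured genes 14.3%, 7.94%, 12.2% and 7.56% were higher and 79.0%, 76.1%, 81.1% and 72.5% lower in gene-rich barcodes. In gene-poor barcodes 9.59%, 6.93%, 8.85% and 5.91% of all genes were higher and 85.7%, 89.1%, 86.0% and 91.3% lower. Counted per library, 12 of 44, 4 of 45, 16 of 43 and 3 of 45 proteasome genes were higher in gene-rich barcodes than in B-like cells, with a median log2 ratio of -0.13, -1.31, -0.32 and -2.18 beside -3.21, -2.00, -3.91 and -1.89 for all genes. Lower were 20 of 44, 31 of 45, 19 of 43 and 34 of 45. In gene-poor barcodes 36 of 44, 41 of 45, 30 of 42 and 41 of 44 were lower, and 3, 3, 6 and 3 higher. Psme3 had 827, 834, 596 and 727 CPM in gene-rich and 866, 926, 807 and 739 CPM in gene-poor barcodes, against 67.5, 43.4, 36.3 and 33.5 CPM in B-like cells. Gene-rich barcodes exceeded B-like cells 12.3-fold, 19.2-fold, 16.4-fold and 21.7-fold, and a Psme3 UMI was found in 45.0%, 37.6%, 33.7% and 43.9% of them.

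Psmd4, a ubiquitin receptor of the regulatory particle, had 876, 607, 1191 and 553 CPM in gene-rich barcodes against 124, 106, 130 and 108 CPM in B-like cells, with log2 ratios of 2.82, 2.51, 3.19 and 2.36. Gene-poor barcodes had 665, 489, 1012 and 351 CPM. For Psmd4 each metastasis library was above the sham library of its tissue. Platelet-like barcodes also carry Psmd4, as given below, and platelet markers in gene-rich barcodes summed to 6.09 CPM in metastasis lung, 13 in sham lung, 1548 in metastasis blood and 7396 in sham blood. They were thus highest where Psmd4 was lowest, and their part in its level was not tested. Psmf1, which inhibits the core particle in the test tube, had 171, 215, 213 and 144 CPM in gene-rich and 134, 146, 140.5 and 98.8 CPM in gene-poor barcodes, against 33.4, 25.9, 28.5 and 22.5 CPM in B-like cells. The promoter windows of Psmd4 and Psme3 (chr3:95042565-95042864, minus strand, and chr11:101315963-101316262, plus strand, RefSeq on GRCm38.p6) are printed as examples of members that were higher in red cell barcodes than in B-like cells of every library, Psmd4 having been picked after its values were seen.
Psmd4: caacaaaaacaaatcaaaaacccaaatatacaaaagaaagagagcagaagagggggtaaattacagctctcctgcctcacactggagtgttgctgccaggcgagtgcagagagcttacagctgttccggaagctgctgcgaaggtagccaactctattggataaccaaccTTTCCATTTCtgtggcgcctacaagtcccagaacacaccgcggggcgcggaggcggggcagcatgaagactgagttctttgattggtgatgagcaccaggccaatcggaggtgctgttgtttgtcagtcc
Psme3: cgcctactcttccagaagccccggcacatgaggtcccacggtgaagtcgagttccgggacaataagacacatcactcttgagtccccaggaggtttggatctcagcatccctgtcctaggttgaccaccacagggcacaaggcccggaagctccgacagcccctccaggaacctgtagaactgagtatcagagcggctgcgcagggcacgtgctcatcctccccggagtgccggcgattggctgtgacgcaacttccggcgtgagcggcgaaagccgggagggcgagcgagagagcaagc
The capitals in Psmd4 mark TTTCCATTTC, a match to the interferon-stimulated core on the other strand 80 bases upstream of the start, and the Psme3 window holds none of the 4 forms.

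**Figure D4:**
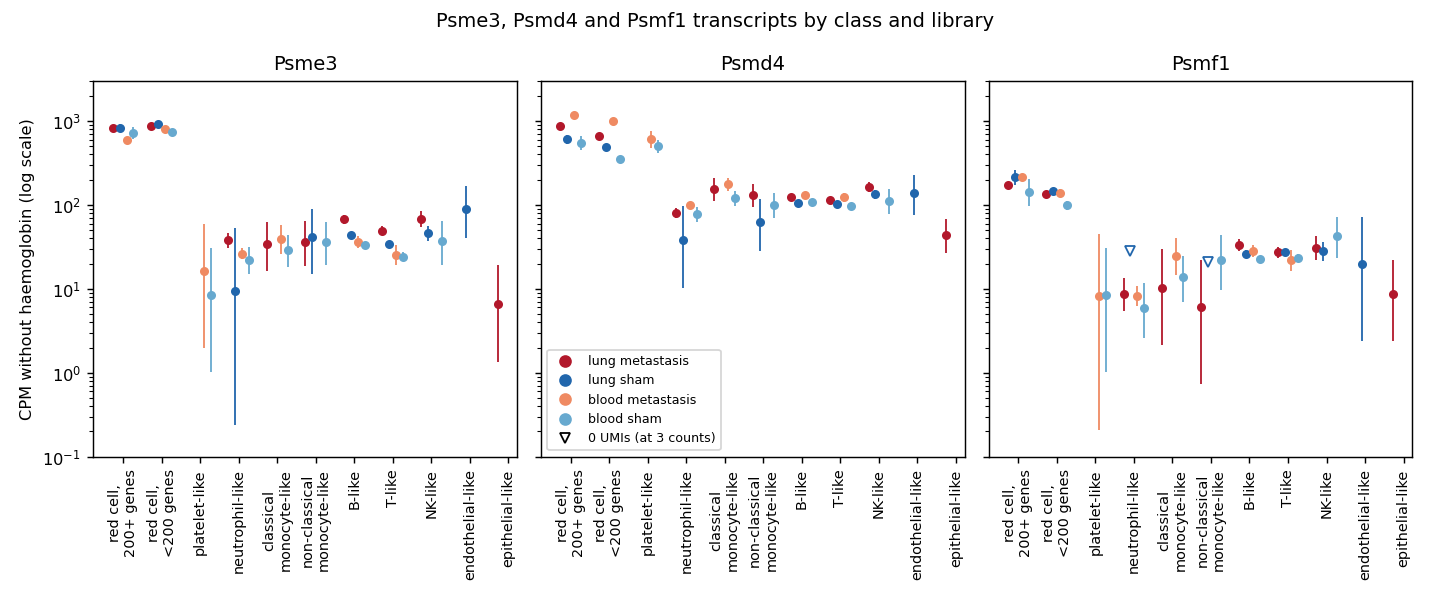
Level of Psme3, Psmd4 and Psmf1 in CPM without haemoglobin (log axis) by class and library, with exact 95% Poisson intervals. Open triangles mark 0 UMIs and are drawn at a floor of 3 counts. In all libraries the red cell points of Psme3 lie between 596 and 926 CPM and the B-like points between 33.5 and 67.5 CPM.

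By UMIs, Psme3 and Psme4 together made up 17.3%, 25.7%, 11.1% and 34.0% of the proteasome RNA of gene-rich barcodes and 33.7%, 35.9%, 24.4% and 49.5% of that of gene-poor barcodes, against 3.74%, 3.20%, 3.00% and 2.93% in B-like cells. The subunits of the regulatory particle other than the ATPases, Psmd4 among them, made up 32.4%, 26.1%, 37.9% and 33.0% in gene-rich barcodes and 18.1%, 17.4%, 18.1% and 17.6% in B-like cells. Core chaperones were almost missing, with 6.80, 28.2, 1.28 and 4.81 CPM in gene-rich barcodes.

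**Figure D5:**
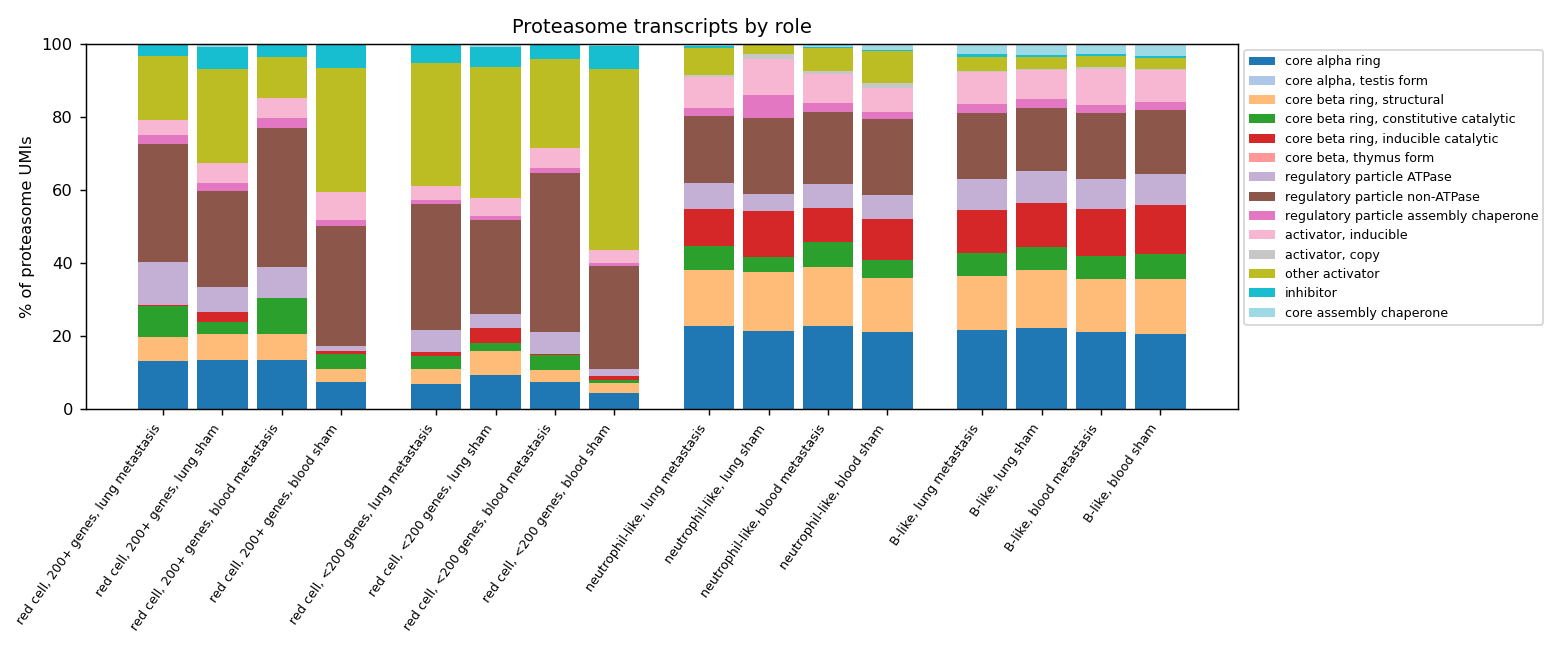
Stacked bars of the percentage of all proteasome UMIs that fall to each role, in gene-rich and gene-poor red cell barcodes, neutrophil-like cells and B-like cells of each library. The segment of the other activators (Psme3 and Psme4) is 11.1% to 34.0% in gene-rich barcodes and 2.93% to 3.74% in B-like cells.

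The inducible catalytic genes were nearly missing from gene-rich red cell barcodes of the metastasis libraries, whose constitutive catalytic genes were high. Psmb5, Psmb6 and Psmb7 together had 455, 117, 572 and 91.4 CPM in gene-rich barcodes, and Psmb8, Psmb9 and Psmb10 together 11.3, 104, 6.84 and 19.2 CPM. The inducible share was 2.41% (1.78 to 3.19) in lung metastasis, 47.1% (37.1 to 57.2) in lung sham, 1.18% (0.68 to 1.91) in blood metastasis and 17.4% (4.95 to 38.8) in blood sham, the last from 4 inducible and 19 constitutive UMIs. The log2 odds ratio of metastasis over sham was -5.17 (-5.90 to -4.42) in lung and -4.14 (-5.94 to -1.96) in blood. Gene-poor barcodes had 19.3%, 62.3%, 3.50% and 61.3%, with log2 odds ratios of -2.78 (-3.20 to -2.37) in lung and -5.45 (-6.50 to -4.41) in blood. The metastasis library was the lower of each pair.

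Psmb8 had 4.92, 67.2, 1.71 and 14.4 CPM in gene-rich barcodes and 289, 286, 308 and 313 CPM in B-like cells. Psmb10 had 3.98, 23.8, 3.85 and 0 CPM, against 93.7, 91.6, 112 and 116 CPM in B-like cells. Both genes were therefore far below the B-like level even in the sham libraries. In sham lung neutrophil-like cells had 75.8 CPM of Psmb8 and 9.48 CPM of Psmb10. Gene-rich barcodes were slightly below the first and above the second, but 8 and 1 UMIs are too few to rank the classes. Psme1 was also called lower than in B-like cells in all 4 libraries, with 106, 104, 77.8 and 106 CPM in gene-rich barcodes against 254, 231, 291 and 255 CPM. Psme2 had 126, 84.5, 246 and 62.6 CPM against 124, 103, 137 and 110 CPM, and was called lower in 1 library only. In metastasis blood Psme2 was higher in gene-rich barcodes than in B-like cells, with a log2 ratio of 0.85. Of the 5 immunoproteasome genes, Psme2 was thus the only 1 not called lower than in B-like cells in every library.

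Leukocyte transcripts in the red cell barcodes differed between the libraries. The 11 B cell markers summed to 47.3, 477, 27.4 and 259.8 CPM in gene-rich barcodes and the 12 neutrophil markers to 251, 58.5, 371 and 77.0 CPM. The B cell markers were thus higher in sham and the neutrophil markers higher in metastasis, in both tissues. Over 5 leukocyte lists with 54 genes the sums were 395, 1352, 418 and 472 CPM in gene-rich and 993, 1368, 765 and 482 CPM in gene-poor barcodes. Platelet markers in gene-rich barcodes, given above, were also higher in sham than in metastasis in both tissues. The part of leukocyte and platelet RNA in the red cell shares was not tested. Another setting left out red cell barcodes with any marker of the 15 class lists, which do not include the platelet list. There the log2 odds ratio of gene-rich barcodes was -5.31 in lung and -4.12 in blood.

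Between the arms, constitutive subunits were higher in gene-rich red cell barcodes of the metastasis libraries. In lung, 16 of 32 measured proteasome genes were higher and 0 lower, against 31.2% and 16.8% of all measured genes, with a median log2 ratio of 1.01 beside 0.22 for all genes. In blood, 25 of 30 were higher and 0 lower, against 54.6% and 13% of all genes, with a median of 2.39 beside 1.05. The filter on UMIs summed over both sides acted unevenly, because metastasis held far more UMIs without haemoglobin than sham. These were 4267251 and 461371 in lung and 2339219 and 207821 in blood. At a given CPM a gene high in metastasis therefore passed more easily than one high in sham. The counts and medians carry that bias, and its size was not tested. The sums below do not use the filter. The median of all measured genes was above 0 in both tissues, at 0.22 in lung and 1.05 in blood, and the ratios are to be read beside it. What raised that median was not tested. All 3 constitutive catalytic genes and all measured ATPases (5 in lung, 4 in blood) were higher in both tissues. The 31 constitutive core genes summed to 3864 CPM in metastasis and 2016 CPM in sham in lung (1.92-fold), and to 4534 and 1116 CPM in blood (4.06-fold). The 5 immunoproteasome genes summed to 243 and 293 CPM in lung (0.829-fold) and to 331 and 188 CPM in blood (1.76-fold). Of these sums Psmb8, Psmb9 and Psmb10 held 11.3 and 104 CPM in lung and 6.84 and 19.2 CPM in blood, and Psme1 and Psme2 the rest. The inducible catalytic genes had too few UMIs to be measured singly.

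In lung gene-rich barcodes Psmd13, a lid subunit of the regulatory particle, had 75.0 CPM in metastasis and 13 CPM in sham (320 and 6 UMIs), a log2 ratio of 2.53 (1.39 to 3.98). Psmb5 had 169 and 32.5 CPM (2.38), Psmb7 157 and 34.7 CPM (2.17) and Psmb6 130 and 49.9 CPM (1.38). All 4 exceeded the median of all genes. In blood gene-rich barcodes the ATPase Psmc6 had 106 CPM in metastasis and 4.81 CPM in sham (247 and 1 UMIs), a log2 ratio of 4.46 (1.96 to 9.77), and Psmb7 had 242 and 14.4 CPM (4.07). With at least 400 genes and at most 5% mitochondrial UMIs the log2 ratio of Psmc6 was -0.65. Sham then held at most 1 UMI of Psmc6, and a count of 0 takes the floor of 3 counts. Sham depth was low in blood gene-rich barcodes, which numbered 239, and 3 of the genes called higher, Psmb2, Psmc3 and Psmd12, had 0 UMIs in sham. Psme3 and Psmf1 were not called in either tissue. Ubb, a polyubiquitin gene, had 16981 CPM in metastasis and 34779 CPM in sham lung (log2 ratio -1.03), and 17365 and 33062 CPM in blood (-0.93), whereas Pomp had 81.3 and 30.3 CPM in lung and 135 and 38.5 CPM in blood.

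Gene-poor barcodes gave mixed directions in lung and a single direction in blood. In lung 11 of 34 measured proteasome genes were higher and 9 lower, against 24.7% and 35.5% of all genes, with medians of -0.06 and -0.19. That balance changed with the setting: 3 were higher and 15 lower with the mean over cells, 15 and 6 with haemoglobin kept in the total, 15 and 6 when scaled to the median gene ratio, 7 and 12 with mitochondrial, ribosomal and the 20 most abundant genes also left out of the total, and 1 and 9 of 13 (median -1.07) with the boundary at 100 genes. The share of all genes called was not computed in these settings. The higher genes were led by Psmd2, a scaffold subunit of the regulatory particle, with 45.3 CPM in metastasis and 17.1 CPM in sham (log2 ratio 1.41), and Psmb7 with 31.9 and 13.1 CPM (1.28). The lower genes were led by Psmb8 with 13.1 CPM in metastasis and 65.5 CPM in sham (-2.32) and the alpha ring gene Psma1 with 5.50 and 23.4 CPM (-2.09). Psmb9 was also lower (-1.92), so both inducible catalytic genes that were measured fell while Psmb5 and Psmb7 rose. Psmb6, the remaining constitutive catalytic gene, was nearly level. It had 118 UMIs in metastasis and 112 in sham, of 3819030 and 3802833 UMIs without haemoglobin. With the boundary between gene-rich and gene-poor barcodes at 100 genes, the log2 ratios of Psmb5 and Psmb7 were -0.78 and -0.99. In blood 22 of 24 were higher and 0 lower, against 55.7% and 11% of all genes, with a median of 2.16 beside 0.81 for all genes. Psmb6 had 50.8 CPM in metastasis and 1.86 CPM in sham (154 and 5 UMIs, log2 ratio 4.77), and Psmd6 had 61.7 and 2.98 CPM (4.37).

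Platelet-like barcodes numbered 112 in metastasis and 229 in sham blood, and the 2 found in lung, both in metastasis, were too few to use. Their 49 genes summed to 5045 and 3856 CPM. The inducible share was 16.3% (9.63 to 25.2) in metastasis and 49.7% (41.9 to 57.5) in sham, a log2 odds ratio of -2.34 (-3.32 to -1.41), and the share was below that of B-like cells in both libraries. The 5 immunoproteasome genes summed to 334 CPM in metastasis and 693 CPM in sham (log2 ratio -1.05, -1.58 to -0.55). The 31 constitutive core genes had a sum 1.5-fold that of sham.

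Of the 3 proteasome genes measured between the platelet-like libraries, Psmb5 was higher with 382 CPM in metastasis and 244 CPM in sham (log2 ratio 0.65, 0.06 to 1.23), against 17.5% of all genes higher and 19.1% lower. Psmb8 had 73.2 and 206 CPM from 9 and 49 UMIs, Psmb9 48.8 and 109 CPM, and Psme2 40.7 and 122 CPM, all too few UMIs to be measured. The 3 inducible genes named were each lower in metastasis, with no call. Over the alternative settings their log2 ratios ran from -4.37 to 0.85 for Psmb8, -3.45 to -0.16 for Psmb9 and -2.46 to 0.36 for Psme2. The direction for Psmb8 and Psme2 thus depended on the setting. The inducible share of platelet-like barcodes was not recomputed in those settings. Leukocyte markers summed to 976 CPM in metastasis and 659 CPM in sham, and haemoglobin took 1.22% and 4.12%, and their part in the shares was not tested. Against B-like cells of the same library 7 of 42 measured genes were higher in both, namely Psma7, Psmb5, Psmc3, Psmd4, Psmd8, Psmd11 and Psmd13. Psmb8, Psmb10, Psmd12, Psmd14 and Psmg4 were lower in both. By library, 10 of 42 were higher in metastasis and 7 of 45 in sham, against 10.1% and 13.1% of all genes. Lower were 8 of 42 and 19 of 45, against 35.9% and 48.7%. Psmd4 reached 610.2 and 504 CPM, close to its level in red cell barcodes of the sham libraries, whereas Psme3 had 16.3 and 8.40 CPM.

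Between tissues of the same arm, lung neutrophil-like cells of the metastasis arm had 0 of 40 measured proteasome genes higher and 10 lower than blood neutrophil-like cells, against 11.4% of all genes higher and 40.9% lower. The median log2 ratio was -0.37 for the proteasome genes and -0.44 for all genes, so the share of lower genes was below the background. The inducible share differed by a log2 odds ratio of 0.17 (-0.08 to 0.42). In T-like cells Psme4 was higher in lung in both arms, with 86.6 CPM in lung and 52.6 CPM in blood of the metastasis arm (log2 ratio 0.72) and 89.8 and 56.2 CPM in the sham arm (0.68), against 13.6% and 11.9% of all genes higher. The inducible share of T-like cells was lower in lung by -0.25 (-0.43 to -0.07) in the metastasis arm and -0.17 (-0.25 to -0.08) in the sham arm on the log2 odds scale.

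The members with tissue-restricted roles were scarcely detected. Psma8, the alpha subunit of the testis, reached at most 9.82 CPM, from 1 UMI, in any class and library, and Psmb11, the catalytic beta subunit of thymic cortical epithelium, at most 3.09 CPM, also from 1 UMI. Psme2b stayed between 0 and 24.4 CPM.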

How the data were processed

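The deposited files hold raw UMI counts per gene and barcode, 1 matrix per library, with no normalisation by the authors. The submitters' processing notes name GRCm38.p6, R 4.3.1, Seurat 4.3.0.1 and Cell Ranger 7.0.0, without settings. The labels name density centrifugation for blood and the series text names CD45 kits, and which step applied to which tissue is unclear.

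Barcodes with at least 200 genes and at most 10% mitochondrial UMIs were put in a class when they held at least 3 markers of 1 of 15 lists and fewer than 3 of every other list. Barcodes that met more than 1 list (1011, 1923, 451 and 1191) were left out as possible doublets, and a Scrublet score over 0.3 (expected rate 10%) was an alternative. Red cell barcodes had over 50% haemoglobin UMIs and met no list, and those under 200 genes formed the gene-poor class. UMIs were summed per class and library and scaled to 1000000 without 8 haemoglobin genes (CPM). Classes under 50 cells were left out.

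With 1 library per group no test could be made. Log2 ratios carry exact conditional binomial 95% intervals, shares Clopper-Pearson intervals, odds ratios exact conditional intervals (the normal form for large tables) and levels Poisson intervals, and a gene at 0 takes a floor of 3 counts. The code was tested on simulated data. The gene family and so its members, the other gene lists and the markers were chosen with earlier results of these data known, although the naming rule reads no value. The text names the 5 immunoproteasome genes, Psmb5, Psmb6, Psmb7, Psme3 and Psmf1 throughout, and in each tissue and class the 2 highest and 2 lowest called ratios. Other names were chosen after their values were seen. Alternatives were other cell filters, marker and haemoglobin limits, doublet removal, other scalings, the mean over cells, a 2-fold limit, no filter on low values, and leaving out cells with granule, platelet or red cell transcripts. Python 3.11.15, numpy 2.4.6, scipy 1.17.1, pandas 2.3.3, scanpy 1.11.5 and matplotlib 3.10.9 were used. Some partner genes and their counts are not reported here.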

Additional observations from a re-analysis of the deposited data

Results flagged for a closer look

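In gene-poor red cell barcodes 3 genes had called ratios of metastasis over sham that ran in opposite directions in lung and blood. Psma3, an alpha ring gene, had a log2 ratio of -1.34 in lung and 2.19 in blood. Psmb1, a structural beta gene, had -0.95 in lung and 0.99 in blood. Psme1, a subunit of the inducible activator, had -0.68 in lung and 0.84 in blood. The difference between the tissues was not tested, since each tissue and arm had 1 library. The median log2 ratio of all genes was -0.19 in lung and 0.81 in blood in the same comparison.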

How the results depend on the processing

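Of the member-by-class comparisons between the arms, 71 of 221 were called higher in blood, 33 of 225 higher in lung, 0 lower in blood and 9 lower in lung. Most of the higher calls in each tissue came from red cell barcodes. Of all genes there, 54.6% (gene-rich) and 55.7% (gene-poor) were higher in blood, and 31.2% and 24.7% in lung. The pooled share of all genes was not computed, here or in the other settings. With at least 400 genes and at most 5% mitochondrial UMIs the blood count of higher calls was 46 of 191. With the mean over cells the lung counts were 21 higher and 16 lower. The blood count of lower calls was 1 with red cell barcodes from 30% haemoglobin, 1 with haemoglobin kept in the total, 3 when scaled to the median gene ratio and 9 of 331 without a filter on low values, where the lung count was 20 of 334. At 2-fold the lung count of lower calls was 5. The log2 odds ratio of the inducible share moved to -0.22 in lung NK-like cells and to 0.14 in blood classical monocyte-like cells with 2 markers, to 0.013 in lung T-like cells without leukocytes over 5% haemoglobin, and to -0.28 in blood neutrophil-like cells without Ngp, Ltf or Camp, an alternative added after the data were seen. Among the called ratios followed across settings, direction turned for Psmb5 (-0.78) and Psmb7 (-0.99) in lung gene-poor red cell barcodes with at least 100 genes, for Psmc6 (-0.65) in blood gene-rich barcodes with at least 400 genes, and for Psme1 (-0.067) in lung non-classical monocyte-like cells with 2 markers. The Psmc6 value rests on at most 1 sham UMI. The cause was not tested. In blood neutrophil-like cells the count of higher genes was 15 with the mean over cells or haemoglobin kept and 9 at 2-fold, against 22. The share of all genes called was not computed in those settings. Psmd9 (1.37) and Psmb6 (1.19) lost their call without cells with granule transcripts. At 400 genes gene-rich red cell barcodes of blood were too few for a share. Lung sham neutrophil-like cells and blood sham red cell barcodes had the lowest depth and limit what could be measured. No paired analysis was possible because each group had 1 library and no result comes from a test.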
